A study of Mus musculus with 2 samples.

Results

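The cells described here are CD4 T cells of the inflamed mouse stomach that carried transcripts of the receptors Lag3 and Izumo1r or of the transcription factor Myb. They were picked by UMIs (unique molecular identifiers, each standing for 1 captured transcript) in single cells. A member had at least 1 UMI of Cd3d, Cd3e or Cd3g, at least 1 of Cd4, none of Cd8a, Cd8b1, Foxp3 or Cd79a, at least 2 in sum of Lag3, Izumo1r and Myb, and at most 1 in sum of Tnfsf8, Tnfsf11 and Maf. Cells had to show 200 or more genes and no more than 10% of UMIs from the mitochondrial genome, which 32372 did. The rule found 1132 members among them, of which 876 came from the IL-27 library and 256 from the PBS library. The CD3+CD4+ cells without Cd8a, Cd8b1, Foxp3 or Cd79a, called conventional CD4 cells here, numbered 2551, and the 1419 that were not members served as the comparison. The working name of the members, anergic-like, is examined against their transcripts.

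All mice were TxA23, a T cell receptor transgenic line whose CD4 T cells recognise a gastric parietal cell antigen and which develops autoimmune gastritis. Mini osmotic pumps were placed under the skin at 3 months of age and stayed for 4 weeks. In the IL-27 group they held 800 ng of recombinant IL-27 at 4 ug/mL in 200 uL, and the group pooled 3 females. In the PBS group they held PBS only, and the group pooled 1 male and 1 female. Live CD45+ cells were sorted from the gastric mucosa and sequenced with the 10x Genomics 5′ v1.1 chemistry, giving 1 library per group. No group without gastritis was analysed here, so levels in members stand against other cells of the same stomachs and not against healthy tissue.

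Anergy is a state in which a T cell that met its antigen without full costimulation survives but makes little IL-2 on meeting it again. In mice, high folate receptor 4, encoded by Izumo1r, together with CD73, encoded by Nt5e, marks anergic CD4 cells, and LAG-3 is an inhibitory receptor that binds MHC class II. IL-27 is a cytokine of myeloid cells that signals in T cells through Il27ra and gp130 (Il6st) to STAT3, and it can raise inhibitory receptors and IL-10 in CD4 cells.

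The IL-27 library held 80121995 UMIs in 20897 barcodes and the PBS library 43501501 UMIs in 12276 barcodes. Barcode suffixes told 3 wells apart in the IL-27 library and 2 in that of PBS, with 319, 266 and 291 members in IL-27 wells 1 to 3 and 218 and 38 members in PBS wells 1 and 2. The labels do not tie wells to mice, so a test over wells measures only the spread between wells, which may be technical. PBS well 2 stood apart: Y-linked UMIs occurred in it alone, in 39.9% of its cells. Between PBS well 2 members and those of each other well, 40 to 50 of 1230 compared genes differed 2-fold or more, against 0 to 3 between any other pair of wells. In that well 12 of 38 members had Y-linked UMIs only, 5 had Xist only and 21 had neither, and Xist without Y-linked UMIs was seen in 13.2% of its members against 3.36% of all its cells. Treatment, sex and well therefore cannot be told apart in any value that rests on PBS well 2. For IL-27 against PBS, counts of called genes and the list medians are also given without that well. Median depth was 3735 UMIs in members and 3773 in other conventional CD4 cells, and 0 member barcode sequences occurred in both libraries, although 337 did among all cells.

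The genes of the rule chose the cells, so their levels are a description. Izumo1r was the gene that most members shared: 93.9% of the 1132 had at least 1 UMI, against 64.3% with Lag3 and 43.4% with Myb. Izumo1r with Lag3 and without Myb was the largest combination, with 350 cells, followed by all 3 genes with 318 cells (28.1%) and Izumo1r alone with 271 cells (23.9%). Lag3 alone made up 20 cells and Myb alone 9. The combination differed between wells, since Izumo1r alone described 44.7% of PBS well 2 members and all 3 genes only 7.89%. In cells gated as B lineage (Cd79a present, no Cd3 transcript, median 2803 UMIs), which should lack these genes, Izumo1r was seen in 1.19% of cells, Lag3 in 0.533% and Myb in 0.336%.

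Izumo1r reached 1272, 1234 and 1222 CPM (UMIs per 1000000 UMIs, over the summed UMIs of the members of a well) in IL-27 wells and 1288 and 939 CPM in PBS wells. Lag3 stood at 343, 394 and 397 CPM in IL-27 wells, against 300 and 407 CPM in PBS wells. Myb, a regulator of lymphocyte progenitors and of stem-like T cells, had 157, 223 and 238 CPM in IL-27 wells, against 146 and 87.6 CPM in PBS wells. PBS well 2 was lowest for Izumo1r and Myb and highest for Lag3. The IL-27 and PBS wells overlapped for Izumo1r and Lag3, while all IL-27 wells lay above both PBS wells for Myb. Sox4, a transcription factor named as a marker of these cells, was not used by the rule, but its level is a description too. It had 218, 158, 186, 191 and 138 CPM in members of IL-27 wells 1 to 3 and PBS wells 1 and 2. In other conventional CD4 cells of the same wells it had 85.5, 40.8, 56.0, 95 and 13.2 CPM. Members were higher in each of the 5 wells without overlap, and Sox4 was detected in 34.0% of members, 13.3% of other conventional CD4 cells and 0.772% of B lineage cells.

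**Figure D1:**
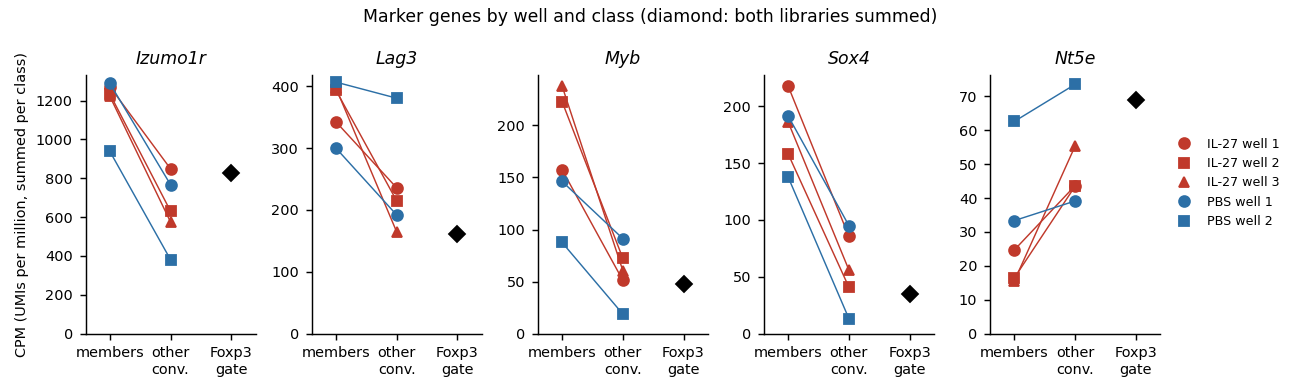
Level of 5 marker genes in CPM (linear axes from 0) by well in members and in other conventional CD4 cells, joined by a line per well, with Foxp3 gate cells of both libraries as a diamond. Izumo1r, Lag3, Myb and Sox4 lie higher in members in every well, while Nt5e lies lower in members in every well and highest in PBS well 2.

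The threshold of 2 UMIs cuts through a continuum. Just inside it, 157 members had a sum of exactly 2, and just outside it 225 conventional CD4 cells that met the other criteria had a sum of 1. Ikzf2, which encodes the transcription factor Helios, had 286 CPM in the cells just inside and 169 CPM in those just outside, and 432 CPM in the 592 members with a sum of 6 or more. Id3, an inhibitor of E proteins, had 336 CPM just inside, 255 CPM just outside and 665 CPM at a sum of 6 or more. The interleukin 7 receptor gene Il7r went the other way, with 220 CPM just inside and 191 CPM just outside, but 29.4 CPM at a sum of 6 or more. Cd200, an inhibitory ligand, had 116 CPM just inside, 111 CPM just outside and 385 CPM at a sum of 6 or more. Cells on either side of the threshold were thus closer to each other in Il7r and Cd200 than either was to the members with high sums.

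Members with Izumo1r alone also differed from members with Izumo1r and Lag3 but no Myb. Il7r was at 215 CPM in cells with Izumo1r alone and at 26.4 CPM in cells with both. Tnfrsf9, which encodes the costimulatory receptor 4-1BB, had 179 CPM in cells with Izumo1r alone and 414 CPM in cells with both, and Cd200 had 147 CPM with Izumo1r alone and 381 CPM with both. Tnfsf4, which encodes OX40 ligand, had 5.91 CPM with Izumo1r alone and 62.5 CPM with both. Median depth was 3526 UMIs in the 271 cells with Izumo1r alone, and the part of depth in these differences was not tested.

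Across all genes, members were set against other conventional CD4 cells with edgeR on sums per well. This contrast is the one the rule was drawn from, so its counts describe the members and nothing is read from them as evidence. At a Benjamini-Hochberg adjusted p below 0.05, 758 of 7955 genes (9.53%) differed, 338 higher in members (4.25%) and 420 lower (5.28%). The median log2 fold change over all tested genes was 0.0032. The limit on Tnfsf8, Tnfsf11 and Maf itself selected against genes that go with those effector genes.

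Genes known from anergy lay on both sides. Of 21 tested genes of an anergy list, 5 were called higher in members, 3 were called lower and 13 were not called, with a median log2 fold change of 0.13. Over all tested genes 4.25% were called higher and 5.28% lower. The higher ones were Tnfrsf9, Rasgrp1, a Ras activator downstream of the T cell receptor, Dgkz, a diacylglycerol kinase that dampens that signal, Cblb, an E3 ubiquitin ligase that restrains T cell activation, and Ikzf1, the transcription factor Ikaros. Dgkz had 388, 382, 340, 369 and 300 CPM in members of IL-27 wells 1 to 3 and PBS wells 1 and 2, against 271, 258, 241, 304 and 268 CPM in the other cells of those wells. Cblb had 81.3, 126, 116, 110 and 181 CPM in members, against 78.4, 92.2, 89.3, 87.6 and 115 CPM in the others. Both genes were higher in members of every well, but Cblb by little in IL-27 well 1.

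The lower genes of the anergy list were Nt5e, Nrp1 and Dtx1. Nt5e, the partner of folate receptor 4 in the usual definition of anergic mouse CD4 cells, had 24.7, 16.4, 15.5, 33.3 and 62.6 CPM in members, in the same order of wells, and 43.6, 43.5, 55.3, 39.1 and 73.5 CPM in other conventional CD4 cells. Members were lower in each well. Foxp3 gate cells of both libraries had 69.0 CPM, and the 237 conventional CD4 cells with no UMI of the 6 genes summed by the rule (Lag3, Izumo1r, Myb, Tnfsf8, Tnfsf11 and Maf) had 25.3 CPM. Egr2 and Egr3, transcription factors known to drive anergy, averaged 71.3 ± 19.7 and 35.5 ± 8.18 CPM in members and 64.2 ± 18.3 and 29.3 ± 8.44 CPM in the others (SD, n = 5 wells). Neither was called, nor were the diacylglycerol kinase Dgka, the inhibitory receptors Pdcd1 and Ctla4, or Cd200. Il2 had 5 UMIs in all members and 54 in all other conventional cells, out of 4722633 and 6319685 UMIs. That was lower in members, and a low level in both. The cells are called by the rule here, not by a state.

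The lists of receptors that restrain T cells and of receptor signalling had medians near 0. The counts that follow stand beside 4.25% called higher and 5.28% lower over all tested genes. Among 13 co-inhibitory receptors tested 1 was higher, Pecam1, and 3 were lower, Nt5e, Tigit and Vsir, with a median of -0.03. Of 17 T cell receptor signalling genes 2 were higher, the exchange factor Vav1 and the phosphatase Ptpn6, and 0 were lower. In the list of NR4A, EGR and other receptor-induced genes, 5 of 20 were higher (Nr4a1, Nab2, Egr1, Dusp2 and Ier2), 2 were lower (Nab1 and Myc) and the median was 0.09. Nr4a1, an early gene of antigen receptor signalling, averaged 230 ± 71.5 CPM in members and 165 ± 51.7 CPM in others (SD, n = 5 wells). Of 15 dissociation stress genes 4 were higher, Fos, Egr1, Zfp36 and Ier2, and 2 lower; Egr1 and Ier2 are in both lists, and the part of tissue handling in them was not tested.

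Most of the called genes of naive and central memory T cells were higher in members, but not all. Of 15 tested genes 8 were called higher, 3 lower and 4 not, with a median log2 fold change of 0.45. Those counts stand beside 4.25% higher and 5.28% lower over all tested genes. Bach2, a repressor of effector programmes, had 86.4, 109, 138, 68.8 and 56.3 CPM in members of IL-27 wells 1 to 3 and PBS wells 1 and 2, against 50.1, 63.2, 53.3, 46.6 and 22.6 CPM in the others. Ccr7, the chemokine receptor for lymph node entry, averaged 275 ± 96.0 CPM in members and 181 ± 54.4 CPM in others (SD, n = 5 wells), and Tcf7, the transcription factor TCF-1, 567 ± 79.3 and 413 ± 65.6 CPM. The lower ones were Il7r, Dapl1 and Igfbp4, of which Il7r had 85.7 ± 50.9 CPM in members and 199 ± 69.2 CPM in others. Klf2 and S1pr1, which control exit from tissue, were not called.

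These differences depended on which conventional cells stood as the comparison. Against the 237 cells with no UMI of the 6 summed genes, Ccr7, Lef1 and Satb1 pointed the other way, at log2 fold changes of -0.035, -0.34 and -0.38 in members, and so did Nr4a1 at -0.54. Pdcd1 and Ctla4 were then higher in members, at 1.44 and 1.74. Ikzf2 had 61.6 CPM in those cells, against 403 CPM in members. Lef1, a transcription factor of naive T cells, had 375 CPM in members, 464 CPM in the cells with none of the 6 genes and 268 CPM in all other conventional CD4 cells together.

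Most of the tested transcription factors differed. Of 20 tested, 11 were called higher, 5 lower and 4 not, with a median log2 fold change of 0.35. Those counts stand beside 4.25% higher and 5.28% lower over all tested genes. Ikzf2 had 396, 390, 409, 437 and 300 CPM in members, in the order of wells above, against 219, 188, 231, 216 and 162 CPM in other conventional CD4 cells, and 565 CPM in Foxp3 gate cells. Id3 had 694, 479, 482, 676 and 238 CPM in members, against 371, 254, 282, 361 and 98.0 CPM in others. Tox, a factor of chronically stimulated T cells, averaged 245 ± 24.9 CPM in members and 193 ± 61.7 CPM in others (SD, n = 5 wells), though PBS well 2 had 225 CPM in members and 298 CPM in others. The lower factors were Gata3, Runx3, Tox2, Batf and Id2, which act in helper lineages or effector cells. Gata3 averaged 44.6 ± 13.8 CPM in members and 93.4 ± 19.1 CPM in others.

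Among the genes outside the lists, Arhgap20, a GTPase activating protein, had the largest log2 fold change under the naming rule, 1.68, with 49.9 ± 32.6 CPM in members and 15.4 ± 8.91 CPM in others (SD, n = 5 wells). Cxxc5, a zinc finger protein, averaged 51.2 ± 8.85 CPM in members and 21.9 ± 2.25 CPM in others, with no overlap between classes. Il6st, the shared receptor chain gp130, averaged 224 ± 67.1 CPM in members and 121 ± 35.0 CPM in others. Ifi214, an interferon-inducible gene, Ift80, a ciliary transport gene, Dnah8, a dynein gene, Eno3, an enolase, Gadd45g, a stress gene, and Chchd10, a mitochondrial gene, completed the 12 higher genes of that rule with Ikzf2, Bach2 and Id3.

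Effector and tissue memory genes were lower in members, on the side that the limit on Tnfsf8, Tnfsf11 and Maf favours. Of 17 tested memory and tissue retention genes 16 were called lower and 0 higher, with a median log2 fold change of -1.21. Over all tested genes 5.28% were lower and 4.25% higher. A gene could enter this fit through its level in the others alone. In the fit of IL-27 against PBS, run on members only, 13 genes of this list were abundant enough. S100a4, a calcium-binding protein of memory cells, had 2.90, 11.9, 8.62, 4.30 and 138 CPM in members and 89.0, 148, 159, 97.8 and 349 CPM in others. PBS well 2 was the highest of the members' wells, and members were lower than the others in every well. Itgb1, the beta 1 integrin chain, averaged 97.7 ± 54.4 CPM in members and 250 ± 71.9 CPM in others (SD, n = 5 wells).

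The helper lineages gave the same picture: 6 of 7 tested Th1 genes, 3 of 4 Th2 genes and 5 of 5 Th17 genes were called lower and 0 higher. These and the list counts below stand beside 5.28% lower and 4.25% higher over all tested genes. A gene could enter this fit through its level in the others alone, so the filter itself favoured calls on the lower side. In the fit of IL-27 against PBS, run on members only, 5 Th1, 4 Th2 and 2 Th17 genes were abundant enough. Il18r1, a receptor chain for interleukin 18, averaged 16.0 ± 14.2 CPM in members and 52.4 ± 10.4 CPM in others. Il21 had 0 UMIs in members and 41 UMIs in other conventional CD4 cells, at least 10.2-fold lower in members with a floor of 3 counts over all members. Il10 had 0 UMIs in members and 12 UMIs in others, at least 2.99-fold lower. Neither was abundant enough for the fit. Of 13 follicular helper genes 2 were higher, Bcl6 and Tox, and 6 lower, and of 13 regulatory T genes 2 were higher, Ikzf2 and Tnfrsf9, and 4 lower. Among 14 cell cycle genes 1 was higher, Tubb5, and 6 were lower. Among markers of other cells, the B cell list had 0 of 2 tested genes called and the myeloid list 2 of 4, both lower in members. The mast cell and epithelial lists had no gene abundant enough for the fit. PBS well 2 stood out among members. Its mast cell list summed to 782 CPM, against 0.726 to 20.4 CPM in members of the other wells. The myeloid list summed to 826 CPM against 110 to 234, and the NK and NKT list to 2128 CPM against 213 to 431. The B cell list did not stand out, at 106 CPM against 98.3 to 134. Other conventional CD4 cells of PBS well 2 stood out too, with 245 CPM of the mast cell list against 1.18 to 10.2 in the other wells. Their myeloid list summed to 1753 CPM against 165 to 999, and their NK and NKT list to 2503 CPM against 378 to 471.

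**Figure D2:**
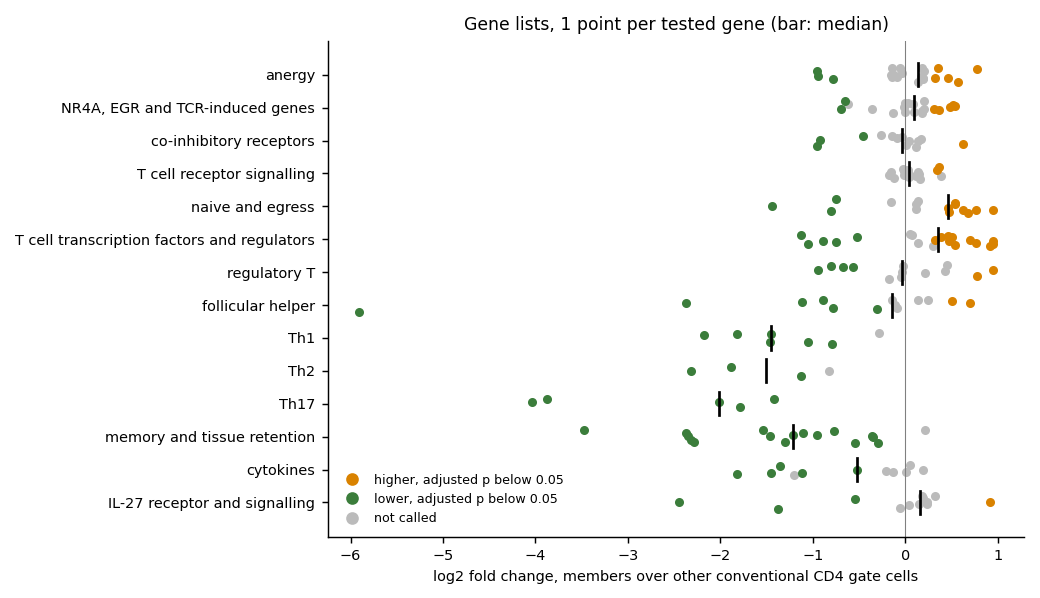
Log2 fold change of members over other conventional CD4 cells for each tested gene of 14 lists, coloured by call, with a bar at each list's median. Naive genes and transcription factors lie mostly above 0, memory and helper genes below it, and the anergy list lies on both sides; the point near -5.9 is Sostdc1, which was nearly absent from members.

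The antigen receptor V segments were not used by the rule, although the classes compared were split by it. A T cell receptor joins an alpha and a beta chain, each with 1 variable (V) segment of many, and the 5′ chemistry reads into these segments. The 3′ ends of 3 V exons are shown because the shares that follow count transcripts of these segments; capitals run from the codon of the conserved cysteine near the V segment's end, where the antigen-contacting loop begins. Sequence and positions are from GRCm38 with GENCODE M21, plus strand: Trbv1 at chr6:40891736-40891885, Trav14d-3-dv8 at chr14:53078896-53079045 and Trbv13-2 at chr6:41121683-41121832, each the last 150 bases of exon 2 of 2.
Trbv1: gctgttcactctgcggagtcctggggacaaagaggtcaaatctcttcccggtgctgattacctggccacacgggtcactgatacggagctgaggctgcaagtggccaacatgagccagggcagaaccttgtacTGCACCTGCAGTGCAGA
Trav14d-3-dv8: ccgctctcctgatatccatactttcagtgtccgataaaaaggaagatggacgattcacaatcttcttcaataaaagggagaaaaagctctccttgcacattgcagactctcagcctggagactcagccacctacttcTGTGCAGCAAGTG
Trbv13-2: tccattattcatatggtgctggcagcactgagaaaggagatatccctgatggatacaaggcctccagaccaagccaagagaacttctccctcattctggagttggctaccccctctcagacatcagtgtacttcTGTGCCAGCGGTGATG

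Fewer members than other conventional CD4 cells had a beta chain segment other than Trbv1, in a test too small to pass 0.05. At least 1 UMI of such a segment was found in 35.1%, 38.0% and 39.2% of members in IL-27 wells 1 to 3 and in 31.2% and 65.8% in PBS wells 1 and 2. Among other conventional CD4 cells the shares were 52.3%, 63.3%, 67.1%, 45.6% and 65.9%, in the same order. Members were lower in each well, by 17.0 points on average (SD 11, n = 5 wells), but PBS well 2 showed almost no difference. An exact two-sided permutation test over the 5 wells gave p = 0.0625, the smallest it allows, and an adjusted p of 0.15 over 36 such comparisons. Over both libraries 37.1% of members (95% exact binomial interval 34.3 to 40.0, counting error only) and 58.2% of others (55.6 to 60.8) had such a UMI. The share was 64.3% in Foxp3 gate cells, 69.6% in cells with none of the 6 summed genes and 0.975% in B lineage cells. The others include 196 cells with at least 2 UMIs of Tnfsf8, Tnfsf11 and Maf and at most 1 of Lag3, Izumo1r and Myb. Their share was 76.5%. Trbv13-2 alone followed, with UMIs in 13.1% of members and 17.4% of others as means of wells, lower in 5 of 5 wells (exact permutation p = 0.0625, adjusted p = 0.15). Trbv31 had UMIs in 5.53% of members and 11.1% of others, also lower in 5 of 5 wells at the same p. Trbv19 had UMIs in 6.63% of members and 8.26% of others, lower in 4 of 5 wells (exact permutation p = 0.1875, adjusted p = 0.293). Trbv5 had UMIs in 6.60% and 8.53%, lower in 4 of 5 wells (exact permutation p = 0.6875, adjusted p = 0.728), while in PBS well 2 it was found in 18.4% of members and 6.50% of others.

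Trbv1 itself cannot be read as a feature of these cells. It was found in 70.8% of members and 64.8% of other conventional CD4 cells, but also in 72.4% of B lineage cells, and at 429 CPM in members, 432 in others and 553 in B lineage cells. Its presence in members is at the background that B lineage cells show, whose source was not tested. That level was not shared by all cells: those with none of the 6 summed genes had Trbv1 in 45.6%, at 380 CPM. As means of wells, members exceeded them by 19.7 points (SD 13.7), with 4 of 5 wells higher (exact permutation p = 0.125, adjusted p = 0.237). Trav14d-3-dv8, whose family has near-identical copies between which reads may be divided, was found in 33.6% of members, 30.2% of others and 21.3% of B lineage cells, so most of its share in members is also at that background. Cells with none of the 6 summed genes had Trav14d-3-dv8 in 23.2%. It was higher in members than in other conventional CD4 cells in 5 of 5 wells, by 3.80 points on average (SD 2.60, exact permutation p = 0.0625, adjusted p = 0.15). Alpha segments other than Trav14d-3-dv8 were found in 77.7% of members, 79.4% of others and 1.62% of B lineage cells, and their difference went both ways between wells (exact permutation p = 0.4375). Of all Trbv UMIs in members, Trbv1 made up 48.3% (46.56 to 49.99) in the IL-27 library and 41.5% (38.5 to 44.6) in the PBS library, values that include that background.

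**Figure D3:**
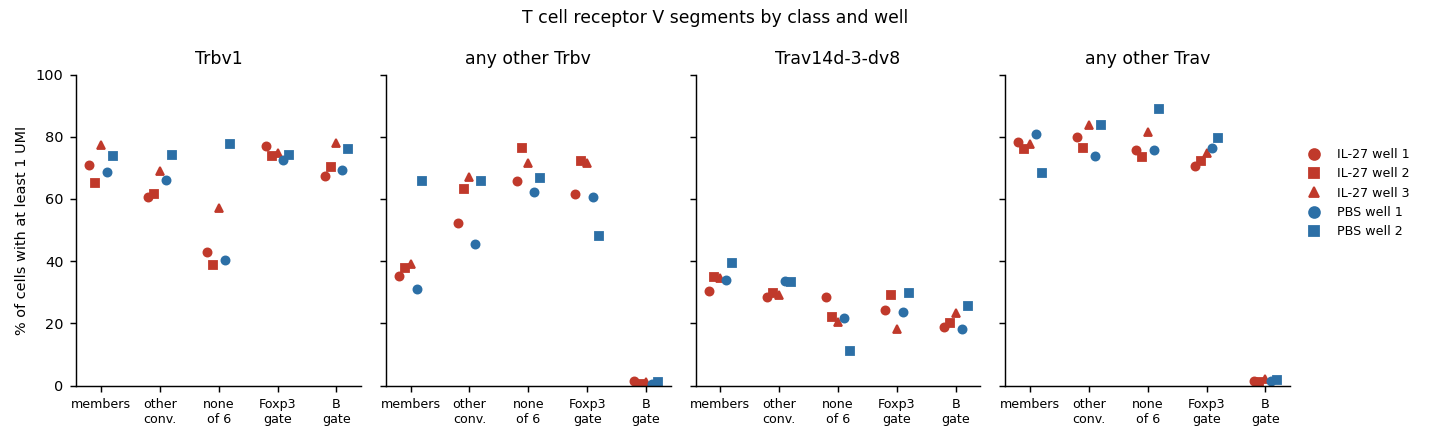
Percent of cells with at least 1 UMI of Trbv1, any other Trbv segment, Trav14d-3-dv8 and any other Trav segment, by cell class, 1 point per well. Beta segments other than Trbv1 lie lower in members than in other conventional CD4 cells, with nearly equal shares in PBS well 2, and Trbv1 is as frequent in B lineage cells as in members.

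The share of members among conventional CD4 cells did not differ between the groups beyond the spread of wells. They made up 43.7%, 44.5% and 47.9% of these cells in IL-27 wells 1 to 3, against 47.9% and 23.6% in PBS wells 1 and 2. PBS well 1 lay at the top of the IL-27 wells and PBS well 2 far below. For the libraries the shares were 45.3% (43.0 to 47.5) with IL-27 and 41.6% (37.6 to 45.6) with PBS, a ratio of 1.09 (0.980 to 1.21, counting error only). An exact two-sided permutation test over wells gave p = 0.6, where 0.2 is the smallest that 3 wells against 2 allow. The ratio was 0.945 without PBS well 2 and 1.92 without PBS well 1.

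As a share of all sorted cells, members reached 4.23%, 4.42% and 4.15% in IL-27 wells, against 3.44% and 0.697% in PBS wells. Each IL-27 well exceeded each PBS well (exact permutation p = 0.2, the smallest possible), and the library values were 4.26% and 2.17%, a ratio of 1.961 (1.71 to 2.25). The ratio fell to 1.24 without PBS well 2 and reached 6.11 without PBS well 1, so the larger part of it came from 1 well. A share of sorted cells also moves with the number of every other cell type in the sort.

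**Figure D4:**
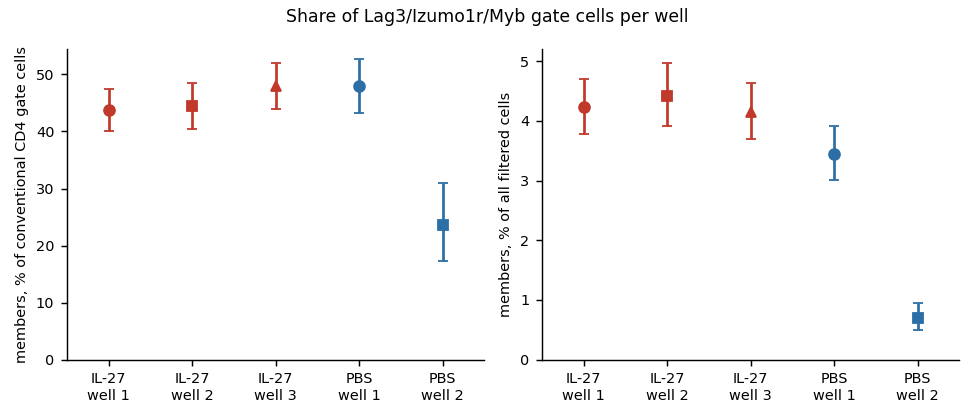
Members as percent of conventional CD4 cells (left) and of all filtered cells (right) in each well, with exact 95% binomial intervals that cover counting error only. IL-27 wells sit between 43.7% and 47.9% on the left, beside PBS well 1 at 47.9% and PBS well 2 at 23.6%.

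Within members, IL-27 and PBS wells differed in few genes. With 3 wells against 2, edgeR called 2 of 8167 genes (0.0245%) at a Benjamini-Hochberg adjusted p below 0.05, both lower with IL-27, while 390 had an unadjusted p below 0.05. DESeq2 also called 2. For scale, 14.3% of tested genes had all IL-27 wells above both PBS wells and 11.3% had them all below, and the library sums were at least 1.5-fold higher with IL-27 in 6.39% of genes and lower in 3.73%. No call survived leaving out any 1 IL-27 well, and 109 genes were called without PBS well 1 and 8 without PBS well 2.

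The IL-27 effect itself was called different between members and other conventional CD4 cells in 9 of 8821 genes (0.102%), 1 more positive in members (0.0113%) and 8 more negative (0.0907%). Of the 9, 6 were still called without PBS well 2 and 4 without PBS well 1. Those 9 genes were Ly6c2 on the positive side and Ccl3, Ccl4, S100a6, Il7r, Il18r1, Xcl1, Hmgb2 and Trbv3 on the negative side.

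Noct, which encodes nocturnin, an enzyme with circadian expression, lies on chromosome 3 at 51224447 to 51251644, plus strand (GRCm38). It had 11.6, 6.39 and 15.5 CPM in members of IL-27 wells 1 to 3, against 91.4 and 43.8 CPM in PBS wells 1 and 2. The wells did not overlap. At least 1 UMI was seen in 4.34% of members with IL-27 and 23.4% with PBS. The libraries had 11.3 CPM (8.10 to 15.3) and 84.4 CPM (68.1 to 104), and edgeR gave a log2 fold change of -2.85 with adjusted p = 0.00585, which ranged from 7.4e-18 to 0.299 over the alternatives. Other conventional CD4 cells had Noct at 14.1, 16.5 and 12 CPM in IL-27 wells, against 81.0 and 22.6 CPM in PBS wells, and the IL-27 effect did not differ between the classes at the threshold (edgeR interaction, log2 -0.59, adjusted p = 0.946).

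Ifitm1, an interferon-induced membrane protein, had 0 UMIs in members of all 3 IL-27 wells, against 20.4 and 37.5 CPM in PBS wells 1 and 2. Its 25 UMIs in PBS members came from 3 cells, and 18 of them from 1 cell, so the difference rests on those cells. It was at least 27.8-fold lower with IL-27, taking a floor of 3 counts over the group, with adjusted p = 0.0232 by edgeR.

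Under the naming rule for IL-27 against PBS, 8 genes had all IL-27 wells above both PBS wells with the largest library ratios: Arhgap20, Mybbp1a, Tnfsf4, Gar1, Desi2, Bach2, Tgfbr1 and Parp11. None was called. Arhgap20 had 55.9, 52.1 and 99.1 CPM with IL-27, against 30.1 and 12.5 CPM with PBS. Bach2 had 86.4, 109 and 138 CPM with IL-27, against 68.8 and 56.3 CPM with PBS. Tnfsf4 had 47.9, 58.5 and 56.0 CPM with IL-27, against 33.3 and 12.5 CPM with PBS. In each of these PBS well 2 was lowest.

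The 8 genes on the lower side were Ccl3, Ccl4, S100a6, Noct, Thy1, Rtp4, Anxa2 and Podnl1, of which only Noct was called. PBS well 2 carried several of them. S100a6, a calcium-binding protein of memory cells, had 7.98, 11.9 and 23.3 CPM with IL-27, against 38.7 and 595 CPM with PBS. Ccl4, an inflammatory chemokine, had 3.63, 1.83 and 16.4 CPM with IL-27, against 35.5 and 1114 CPM with PBS; 178 of its UMIs in PBS well 2 came from 6 of 38 cells. Rtp4, an interferon-induced chaperone, did not depend on that well, with 32.7, 24.7 and 23.3 CPM with IL-27, against 61.3 and 37.5 CPM with PBS.

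The genes through which IL-27 acts were present and showed no call. Il27ra had 224, 302 and 257 CPM with IL-27, against 228 and 225 CPM with PBS. Il6st had 250, 260 and 270 CPM with IL-27, against 233 and 106 CPM with PBS. The groups overlapped for Il27ra, and for Il6st all IL-27 wells lay above both PBS wells, PBS well 1 by little. Stat3 had 127 CPM with IL-27 and 128 CPM with PBS in the libraries. Socs3, a feedback inhibitor of STAT signals, had 15.4 CPM with IL-27 and 11 CPM with PBS.

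Of 12 genes in the IL-27 signalling list 0 were called, with a median library log2 ratio of 0.16 beside 0.02 over all tested genes; with PBS well 1 alone it was 0.17, and with PBS well 2 alone the sign turned, to -0.11. Of 26 interferon response genes 0 were called, with a median of -0.19; with PBS well 1 alone it was -0.25, and with PBS well 2 alone the sign turned, to 0.084. In 6 of the 26 all IL-27 wells lay below both PBS wells and in 0 above, beside 11.3% below and 14.3% above over all tested genes. Of 24 anergy genes 0 were called, with a median of -0.05 (-0.02 with PBS well 1 alone, -0.05 with PBS well 2 alone). Of 14 co-inhibitory receptors 0 were called, with a median of -0.14 (-0.05 and -0.22, in the same order). Among 15 naive and egress genes the median was 0.23; set against PBS well 1 alone it was 0.13, and with PBS well 2 alone 0.95. Of these 15, 6 had all IL-27 wells above both PBS wells and 1 had them below, beside the same 14.3% and 11.3%. Among 13 memory and tissue retention genes the median was -0.57; with PBS well 1 alone it was -0.32, and with PBS well 2 alone -1.44. Of these 13, 10 had all IL-27 wells below both PBS wells and 0 had them above, against the same background of 11.3% and 14.3%. For the choosing genes, Myb had 203 CPM with IL-27 and 138 CPM with PBS, Lag3 375 and 316 CPM, and Izumo1r 1244 and 1237 CPM. None was called, but members were picked by UMIs of these genes, so the fit cannot decide whether IL-27 moved them. Rule genes on the lists above also stayed in the list counts of this fit.

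**Figure D5:**
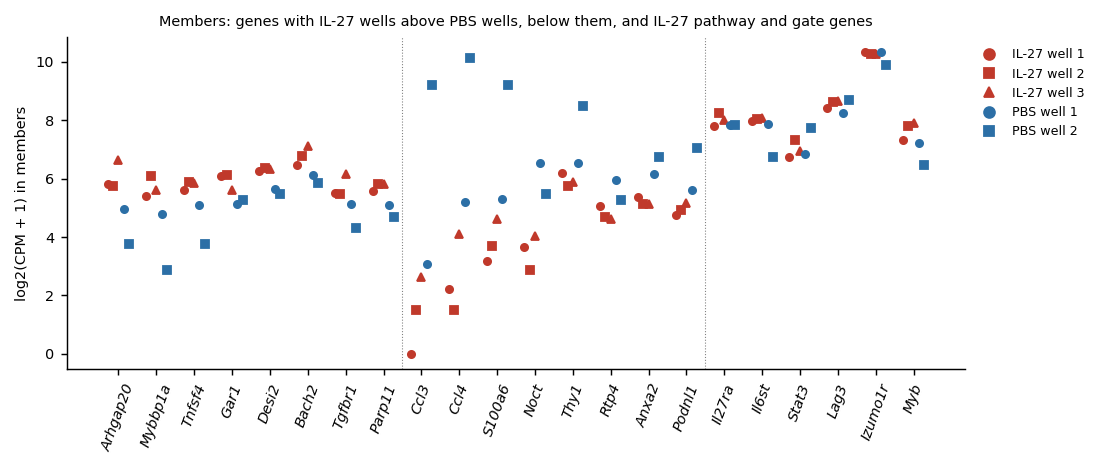
Level in members as log2(CPM + 1) by well for the 8 named genes with IL-27 wells above PBS wells, the 8 with IL-27 wells below, and IL-27 pathway and choosing genes. PBS well 2 stands far above all other wells for Ccl3, Ccl4 and S100a6, whereas Noct is higher in both PBS wells than in the 3 IL-27 wells.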

How the data were processed

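The 10x Genomics 5′ libraries of sorted gastric CD45+ cells were analysed. The deposited files hold whole-number UMI counts per gene and barcode, not normalized by the authors; per the submitters' processing notes they come from Cell Ranger 3.0.0 and build mm10, while the file headers name version 3.1.0. How doublets were treated is not given in the sources used here, and no doublet caller was run; an alternative left out the 9.01% of members that were mixed barcodes (UMIs above 2.5 times the median of their well's conventional CD4 cells, or a UMI of Ms4a1, Cd79b, Lyz2 or Tyrobp).

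Members, gene lists and tests were chosen with earlier results of these data known. Counts were summed per well and class in Python 3.11.15 and tested in R 4.3.3 with edgeR 4.0.16 (quasi-likelihood, TMM, filterByExpr, Benjamini-Hochberg adjustment over all genes tested, threshold 0.05). Members against others and the interaction of class and treatment had the well as a block; IL-27 against PBS had none. The 14 rule genes and Sox4 stayed out of the fits with the well as a block, but not out of IL-27 against PBS. DESeq2 1.42.0 was an alternative, as were other thresholds of the rule, thinning to 1500 UMIs, and leaving out each well. The fits were tested on simulated data. Library log2 ratios use a pseudocount of 1 CPM, and CPM divides by the summed UMIs of the class.

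Genes named for members were the 12 highest and 12 lowest fold changes past the threshold with 1 direction in every well, at least 50 CPM in the higher class and 100 UMIs. For IL-27 the 8 highest and 8 lowest library ratios were named where the wells of the groups did not overlap. Antigen receptor, sex-linked, mitochondrial, ribosomal, haemoglobin and unnamed genes stayed out, and list and rule genes could be named as well. Intervals are 95% exact binomial or Poisson and cover counting error only; ratios of shares have normal intervals on the log scale. A count of 0 was taken as at most 3 counts. Of 31053 gene identifiers in the files, 31011 matched GENCODE M21.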

Additional observations from a re-analysis of the deposited data

Results flagged for a closer look

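In 9 of 8821 genes (0.102%) the IL-27 effect in members differed from that in other conventional CD4 cells (edgeR interaction with the well as a block, Benjamini-Hochberg adjusted p below 0.05). DESeq2 called 1 of them, Il7r, and 6 of the 9 were still called without PBS well 2 and 4 without PBS well 1. Values are the log2 effect in members minus that in the others, then library CPM with IL-27 and with PBS. For the chemokine genes Ccl3 and Ccl4 the difference of effects was -5.49 (adjusted p = 3.13e-06) and -4.49 (adjusted p = 3.76e-06). Without PBS well 2 they were -6.13 (adjusted p = 0.105) and -5.84 (adjusted p = 0.000922). Ccl3 had 2.20 CPM with IL-27 and 91.8 CPM with PBS in members, and 63.6 CPM with IL-27 and 120 CPM with PBS in the others. In PBS well 2, 4 of 38 members held 93 Ccl3 UMIs.

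S100a6 differed by -2.70 (adjusted p = 0.00102), with 14 CPM with IL-27 and 120 CPM with PBS in members, and 187 and 350 CPM in the others. Il7r differed by -1.43 (adjusted p = 0.00124), with 60.8 and 86.3 CPM in members and 217 and 143 CPM in the others. Il18r1 differed by -2.40 (adjusted p = 0.0164), with 6.33 and 25.7 CPM in members and 53.7 and 45.5 CPM in the others.

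The chemokine gene Xcl1 differed by -3.43 (adjusted p = 0.0382) and the chromatin protein gene Hmgb2 by -0.98 (adjusted p = 0.0382). The V segment Trbv3 differed by -6.29 (adjusted p = 0.0219), a gene with 32 UMIs in 7 members in all. Ly6c2, a surface protein of memory T cells and monocytes, differed by 5.48 (adjusted p = 0.0345), with 4.13 and 3.67 CPM in members and 1.27 and 46.8 CPM in the others. Its levels in members rest on few UMIs, out of 3632970 with IL-27 and 1089663 with PBS.

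Leaving out a PBS well leaves 1 PBS well, so only sizes of the difference are given for these genes. Without PBS well 2, S100a6 shrank to -1.39 and Trbv3 to -4.72. Il7r was then at -1.53, Il18r1 at -2.44, Xcl1 at -4.83, Hmgb2 at -1.05 and Ly6c2 at 5.48. Without PBS well 1, Xcl1 shrank to -0.985, Hmgb2 to -0.72 and Il7r to -1.26. Il18r1 was then at -2.27, Ly6c2 at 7.51, S100a6 at -3.55 and Trbv3 at -10.1.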

How the results depend on the processing

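The IL-27 over PBS ratio of the member share of conventional CD4 cells was 0.967 with no limit on Tnfsf8, Tnfsf11 and Maf and 1.32 with a limit of 0, and 0.945 to 1.92 leaving out 1 well. Of all cells it was 2.37 with that limit of 0 and 1.24 to 6.11 leaving out 1 well. Between members and others, 758 calls became 270 with DESeq2, 253 with cells thinned to 1500 UMIs and 462 to 907 leaving out 1 well. With no replicate block of wells there were 264 calls, all shared with the fit that had the block. Between IL-27 and PBS, the 2 calls became 60 with every gene of at least 1 UMI, 1 with mixed barcodes left out and 0 to 109 leaving out 1 well; without PBS well 1 neither of the 2 was called. The 9 differences of effects became 1 with DESeq2 and 12 to 24 leaving out 1 well. No paired analysis was possible for IL-27 against PBS because the wells of the libraries share no numbers that tie them together in the labels.

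The Trbv1 share of 48.3% with IL-27 was 67.6% when cells were counted instead of UMIs and 47.6 to 49.5% leaving out 1 well, and the 41.5% with PBS was 65.1% by cells and 32.6 to 44.0% leaving out 1 well. The difference in cells with another Trbv segment, with settings chosen after seeing the data, was -20.1 points with a minimum of 3 UMIs, -15.8 with mixed barcodes left out and -21.2 to -14.2 leaving out 1 well. Against cells with none of the 6 summed genes, log2 fold changes of members reversed for Dgka (-0.34), Pdcd1 (1.44), Ctla4 (1.74), Nr4a1 (-0.54), Lef1 (-0.34), Ccr7 (-0.035), Satb1 (-0.38) and Cd44 (0.56), and Cblb reversed to -0.12 with thinned cells. Log2 IL-27 over PBS changed sign without PBS well 2 for Tigit (-3.72 to 1.38 leaving out 1 well), Ifng (-4.65 to 0.96) and Cxcr6 (-4.84 to 0.25), and without PBS well 1 for Il2ra (-0.80 to 1.79). The causes were not tested. PBS well 2 held 38 members, so low genes rest on few UMIs there.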

Other observations

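Among constant segments of the T cell receptor, as means of wells, Trac was found in 79.4% of members and 75.1% of other conventional CD4 cells, and Trbc1 in 64.6% of members and 57.1% of others. Both shares were higher in members in 5 of 5 wells (exact permutation p = 0.0625 each, the smallest 5 wells allow, adjusted p = 0.15 over 36 comparisons). Trbc2 was found in 90.2% of members and 89.0% of others, higher in 3 of 5 wells (exact permutation p = 0.4375, adjusted p = 0.543). B lineage cells had Trac in 12.3%, Trbc1 in 19.9% and Trbc2 in 2.96% of cells. Of 959 members with any Trbv UMI, 300 had more than 1 Trbv segment, Trbv1 included.

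The apoptosis list had 2 of 14 tested genes higher in members, the death receptor Fas and the BH3-only protein gene Bcl2l11, and 2 lower, the survival genes Bcl2a1d and Bcl2a1b, beside 4.25% higher and 5.28% lower over all tested genes. The contrast is the one the rule was drawn from, so these counts are a description. Fas averaged 60.5 ± 10.9 CPM in members and 46.0 ± 10.4 CPM in other conventional CD4 cells (SD, n = 5 wells), and Bcl2l11 64.3 ± 12.1 and 45.5 ± 6.72 CPM. Of 13 glycolysis genes 1 was lower in members, Tpi1, and 0 were higher, near the share over all tested genes.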
